A study of Rattus norvegicus with 6 samples.

Results

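The hippocampus of rats taken 70 days after both common carotid arteries had been tied was compared with the hippocampus taken at 45 and 55 days. The comparison uses 3 of the 6 arrays of the series, 1 array for each of these days, and they were chosen because all 3 lay on the second of 2 slides. Per the labels, all animals were male Wistar rats (the strain field spells it Wister), and the RNA on each array was pooled. The animals behind all 3 arrays had the same operation, a permanent double ligation of both common carotid arteries under isoflurane, so none of the 3 is an unoperated reference. The age field of the labels gives 15, 16 and 17 weeks for days 45, 55 and 70. The same labels describe the rats as 12 weeks old, and the steps between those ages are shorter than the steps between the days. The other 3 arrays lay on the first slide and are cited only as background values. They are titled Control and 21 and 35 days after the occlusion of both arteries, and their age field gives 12, 13 and 14 weeks. The sources used here do not say how many animals went into a pool, or whether any had died or were left out.

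Tying both common carotid arteries leaves the vertebral arteries to supply the rat brain and lowers its blood flow for a long time, a state called chronic cerebral hypoperfusion. The hippocampus, which forms new memories, is sensitive to poor supply, and its pyramidal neurons, astrocytes, microglia and small vessels are the usual objects of such studies. It lies against the lateral ventricle, which carries the choroid plexus. The choroid plexus is an epithelium that secretes cerebrospinal fluid, and its cells make very large amounts of a few proteins, above all transthyretin.

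There was 1 array per day, so no error between animals could be estimated and no test was possible. Days 45 and 55 are different time points and not replicates. A difference is the log2 signal at day 70 minus the mean of the log2 signals at days 45 and 55, and a signal of 0 is the 75th percentile of its array. That percentile was 1326, 1285 and 1389 intensity units at days 45, 55 and 70, and 74.5%, 79.2% and 77.1% of the spots were well above background. Probes printed 10 times on an array had a median SD of 0.0512 to 0.0626 between their spots on these arrays, which would give an SD of 0.066 for a difference read from single spots. That covers the printing and reading of an array and not the labelling or the animals. The SD over 12449 genes of the difference between a pair of arrays was 0.25 for day 70 against day 45, 0.25 for day 70 against day 55 and 0.28 for day 55 against day 45. The 3 arrays were thus about equally far from each other, and day 70 was not the one farthest from the rest.

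The tissue label was checked against markers of hippocampal neurons. Fibcd1, a marker of CA1 pyramidal cells, read 3.91, 3.78 and 4.02 at days 45, 55 and 70, and Neurod6, a transcription factor of pyramidal neurons, read 1.92, 1.90 and 2.09. Wfs1, another CA1 marker, read -0.34, -0.60 and -0.35, and Calb1, a calcium buffer of granule and CA1 cells, read -1.14, -1.22 and -1.20. Prox1, the transcription factor of dentate granule cells, read -4.59, -4.92 and -4.78. All 5 were well above background on the 3 arrays, and none differed between day 70 and the mean of the others by more than 0.18.

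At day 70 the hippocampal sample carried far more signal of Ttr, and more of several dim choroid plexus genes, than at days 45 and 55. Few other abundant genes differed by 2-fold, and the size of the dim differences depended on background correction. Of 13409 genes compared, 124 (0.925%) were at least 2-fold higher at day 70 and 47 (0.351%) at least 2-fold lower. Only 88 (0.656%) were 2-fold above each of the other arrays, and 17 (0.127%) were 2-fold below each. Read the same way, day 45 stood 2-fold above each of its 2 neighbours for 85 genes (0.649%) and below each for 12 (0.0916%), and day 55 for 74 (0.548%) and 6 (0.0444%), so counts of this size are not particular to day 70. Nearly all of the called genes were dim. When the genes were divided into 3 equal classes by mean signal, the dimmest class held 118 of the higher and 46 of the lower genes. The middle class held 5 and 0 and the brightest class 1 and 1, namely Ttr and Nxph3. For 57 of the 124 higher genes the difference was only a lower bound, because neither day 45 nor day 55 was well above background. A further 36 higher genes, but only 1 lower gene, were partly measured, with 1 of those 2 arrays not well above background and used as read. With that array set to its floor, 109 genes were higher and 87 lower. Of the 124, 31 were well above background on all 3 arrays, and 122 were read from a single spot.

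**Figure D1:**
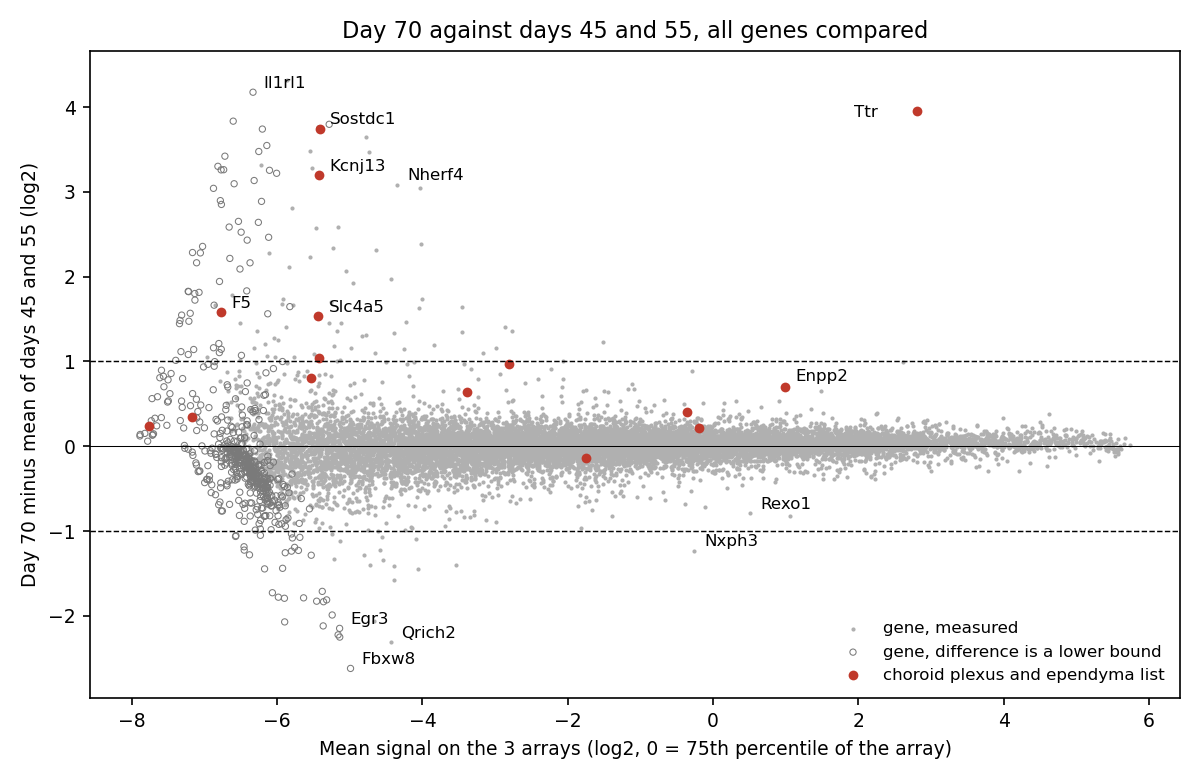
Each point is 1 of the 13409 genes compared. The horizontal axis gives its mean log2 signal on the 3 arrays (0 is the 75th percentile of the array) and the vertical axis its log2 signal at day 70 minus the mean of days 45 and 55. Open circles are lower bounds, dashed lines mark 2-fold and red points are genes of the choroid plexus and ependyma list. The scatter narrows from left to right, and Ttr at 3.95 is the only bright gene far above the 2-fold line.

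The probes behind the results that follow are named here so that they can be found. Each is a 60-base oligonucleotide, positions are those of the array files in rat build rn4, and the first 30 bases (5′ to 3′ as printed on the array) are shown in lower case, with no base singled out. Whether a probe lies in an exon or UTR was not analysed here. The first 3 belong to choroid plexus genes that carry a large difference. The last 4 are probe pairs of Nxph3 and Igfbp2, which gave like differences at 2 places of the same gene. Syndig1 and Calml4 also had such pairs, which are not shown.
Kcnj13, chr9:86209660-86209689, minus strand: taggactgacctagatattcatatcaatgg
Sostdc1, chr6:55070308-55070337, plus strand: attacacggttcctcatacactttgtcatt
Slc4a5, chr4:117515393-117515422, plus strand: cacaggtgaggatagagatggactctgacc
Nxph3, chr10:84201946-84201975, minus strand: cacttctctgtgcagagtcttgtccttgga
Nxph3, chr10:84202902-84202931, minus strand: acaactaccacagtgataccccctactacc
Igfbp2, chr9:71994131-71994160, plus strand: gcttgggaatggggaaagaaatttttattt
Igfbp2, chr9:71993843-71993872, plus strand: catctcttctacaacgagcagcaggagaat

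Ttr, the carrier of thyroid hormone and retinol that the choroid plexus secretes, showed the largest difference of any bright gene. Its log2 signal was 1.499 at day 45, 1.48 at day 55 and 5.44 at day 70, a difference of 3.95 or 15.5-fold. The earlier 2 arrays lay within 0.02 of each other. In intensity units the spot read 3749, 3574 and 60233. At day 70, 29 of its 62 pixels were at the scanner's ceiling of 65285, so the true signal may have been higher, although the spot as a whole was not marked saturated. On the first slide Ttr read 1.53 in the control, 5.66 at day 21, where every pixel was saturated, and 4.69 at day 35. Ttr thus read 4.69 or more at days 21, 35 and 70, and 1.53 or less in the control and at days 45 and 55. This grouping of the arrays was made from the Ttr values themselves, with 1 array each, and was not tested.

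Sostdc1, a secreted inhibitor of BMP and Wnt signals, was read from 10 spots, which among the higher genes held otherwise only for Cnmd, the cartilage protein chondromodulin (at least 5.75-fold higher). It read -7.03 and -6.57 at days 45 and 55, where it was not well above background, and -2.63 at day 70, so day 70 was at least 13.4-fold higher. Kcnj13, an inwardly rectifying potassium channel of the choroid plexus epithelium, read -6.53, -6.44 and -3.29, but only day 55 of the 2 earlier arrays was well above background. Its difference was 3.15 from day 55, at least 2.90 from day 45, and 3.03 from the mean with day 45 at its floor (3.20 with day 45 as read). Slc4a5, a bicarbonate transporter of that epithelium, read -6.17, -5.73 and -4.42, a difference of 1.53 or 2.89-fold. F5, a coagulation factor, read -8.48, -7.06 and -4.80 and was at least 2.99-fold higher. Steap1, a metalloreductase, read -6.15, -5.37 and -4.72, a difference of 1.04 or 2.06-fold, and its distance from day 55 alone was under 2-fold. For Steap1 too, only 1 of days 45 and 55 was well above background, and both values were used as read. In each of these 5 genes day 70 lay above both other arrays.

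Most other genes of the list lay on the same side by smaller amounts. Folr1, which carries folate into the cerebrospinal fluid, read -3.27, -3.0 and -2.16, just short of 2-fold with a difference of 0.97. Aqp1, the water channel of the apical membrane, read -6.17, -5.44 and -5.00 over 10 spots, a difference of 0.80, but was not well above background on every array compared. Enpp2, the secreted enzyme autotaxin, is abundant in choroid plexus and in oligodendrocytes, and read 0.82, 0.69 and 1.45, a difference of 0.70. The oligodendrocyte and myelin list had a median of 0.06 with none of its 16 genes past 2-fold. Igfbp2, a binding protein of insulin-like growth factors, read -0.39, -0.59 and -0.09, a difference of 0.40 that its second probe gave as 0.51. Calml4, a calmodulin-like protein, differed by 0.21, and by 0.16 on its second probe. Clic6, a chloride channel protein, and Kl, which encodes Klotho, gave lower bounds of 0.35 and 0.24.

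Only Otx2 and Foxj1 of the 15 genes compared did not lie above both other arrays at day 70. Otx2, the homeobox factor that maintains choroid plexus identity, read -4.31 at day 45, -2.89 at day 55 and -2.96 at day 70, so its difference of 0.64 came from day 45 alone. Foxj1, the regulator of motile cilia, read -1.88, -1.53 and -1.84, a difference of -0.13. Cldn2, a tight junction protein of the epithelium, Prlr, the prolactin receptor, and Tmem72 were not well above background on any of the 3 arrays and have no difference.

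Of the 18 genes on the array, 8 were well above background on all 3 arrays. 2 of these 8, Ttr and Slc4a5, were at least 2-fold higher, against 0.249% of all such genes, 6 lay above both other arrays, against 31.3%, and their median was 0.67, against 0.02. With the dimmer genes the list had 15 genes compared, with a median of 0.80. Of these, 6 were at least 2-fold higher, against 0.925% of all genes. 13 lay above both other arrays (31.1% of all genes were above and 27.8% below both). Sostdc1, F5, Clic6 and Kl entered through day 70 alone, so their side was set by the filter on dim spots. With no such filter, all 18 genes had a median of 1.06, 10 were 2-fold higher and 16 lay above both other arrays. In that setting 288 of all 17491 genes were 2-fold higher and 370 were 2-fold lower. The list's median was the highest of the 57 gene lists with each of these filters. The lists were written with results of the whole series known, so this rank is not independent of the data. Of the 18 genes on the array, day 70 lay above day 45 for 18 and above day 55 for 16. Across slides, day 70 lay above the control for 14 of them and above day 35 for 13, but above day 21 for only 3. Background correction changed the size for the dim members. After normexp correction, which models background and signal together, the median was 0.38. 3 of the 15 genes were 2-fold higher, against 40 of all 13647 genes. The difference of Sostdc1 was then 1.78, that of Kcnj13 1.29 and that of Slc4a5 0.54. The authors' deposited values gave a median of 0.60, with 4 genes 2-fold higher, against 67 of all 13523 genes. The difference of Ttr lay between 3.94 and 4.05 over the alternatives, each of which starts from the same partly saturated spot. In RNA from whole tissue, more cells of a type and more RNA per cell cannot be told apart, and how much choroid plexus each dissection held was not measured. The part of these genes' tissue of origin in the other differences at day 70 was not tested.

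**Figure D2:**
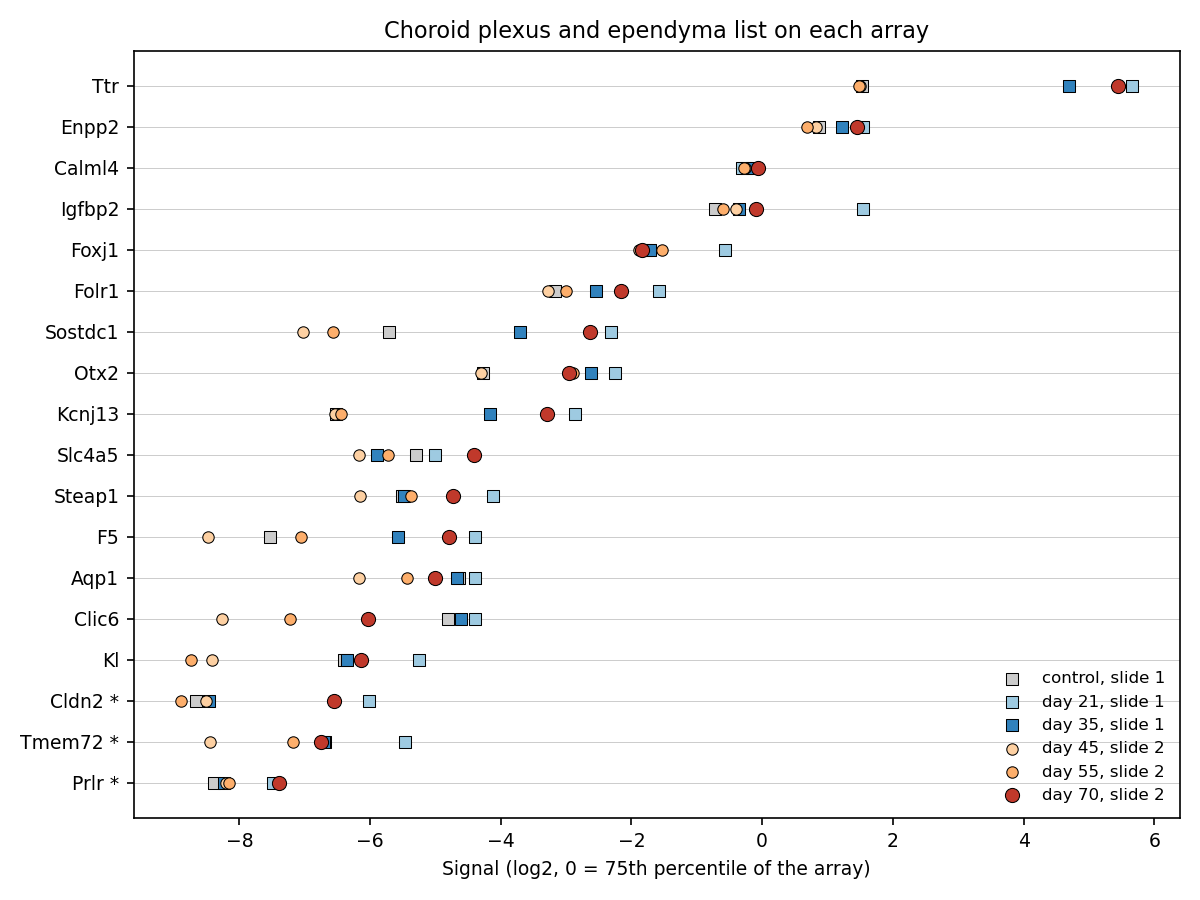
Log2 signal (0 is the 75th percentile of the array) of the 18 genes of the choroid plexus and ependyma list on each of the 6 arrays, ordered by the level at day 70. Squares are arrays of slide 1, circles of slide 2, and an asterisk marks genes not well above background on any of the 3 arrays compared. The red day 70 circles of Ttr, Sostdc1 and Kcnj13 lie close to the day 21 and day 35 squares and far to the right of days 45 and 55.

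Markers of tissue that borders the choroid plexus were not raised to a like degree. The motile cilia list, which marks ependymal cells lining the ventricle, had a median of 0.15, with 6 of 14 genes above and 3 below both other arrays and none past 2-fold. Of all genes, 31.1% lay above both and 27.8% below both. Tekt1, a tektin of the ciliary axoneme, was highest with a difference of 0.41, reading -5.08, -5.11 and -4.68. Dnah9, an outer arm dynein, was lowest at -0.38, reading 0.56, 1.07 and 0.44. The direction of this list rested on the choice of comparison, since its median was -0.09 against day 55 alone and -0.01 after normexp correction. The meninges and fibroblasts list had a median of 0.03 with none of its 15 genes past 2-fold. Ptgds, a prostaglandin synthase made by meninges and choroid plexus, read 3.85, 3.92 and 4.22, a difference of 0.33. Col1a1 and Col3a1, the main fibrillar collagens of the meninges, differed by -0.01 and 0.02.

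Across the 57 lists, 47 had a median within 0.1 of 0, and the choroid plexus list was the only one with more than 1 member past 2-fold. The other single members past that line were Chrnb3, Egr3 and Ern1, besides Ttr, which also stands in the list for thyroid hormone and retinoids. Chrnb3, a nicotinic acetylcholine receptor subunit, read -8.45, -8.85 and -3.33, at least 8.23-fold higher at day 70. It read -8.58 in the control, -3.88 at day 21 and -8.57 at day 35, so it was bright at days 21 and 70 alone, each time from 1 spot. Ern1, a sensor of unfolded protein, read -5.86, -5.35 and -4.15, a difference of 1.46. Egr3, an immediate early transcription factor, read -5.48, -3.25 and -6.69, at least 4.43-fold lower, but its second probe differed by 0.04.

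**Figure D3:**
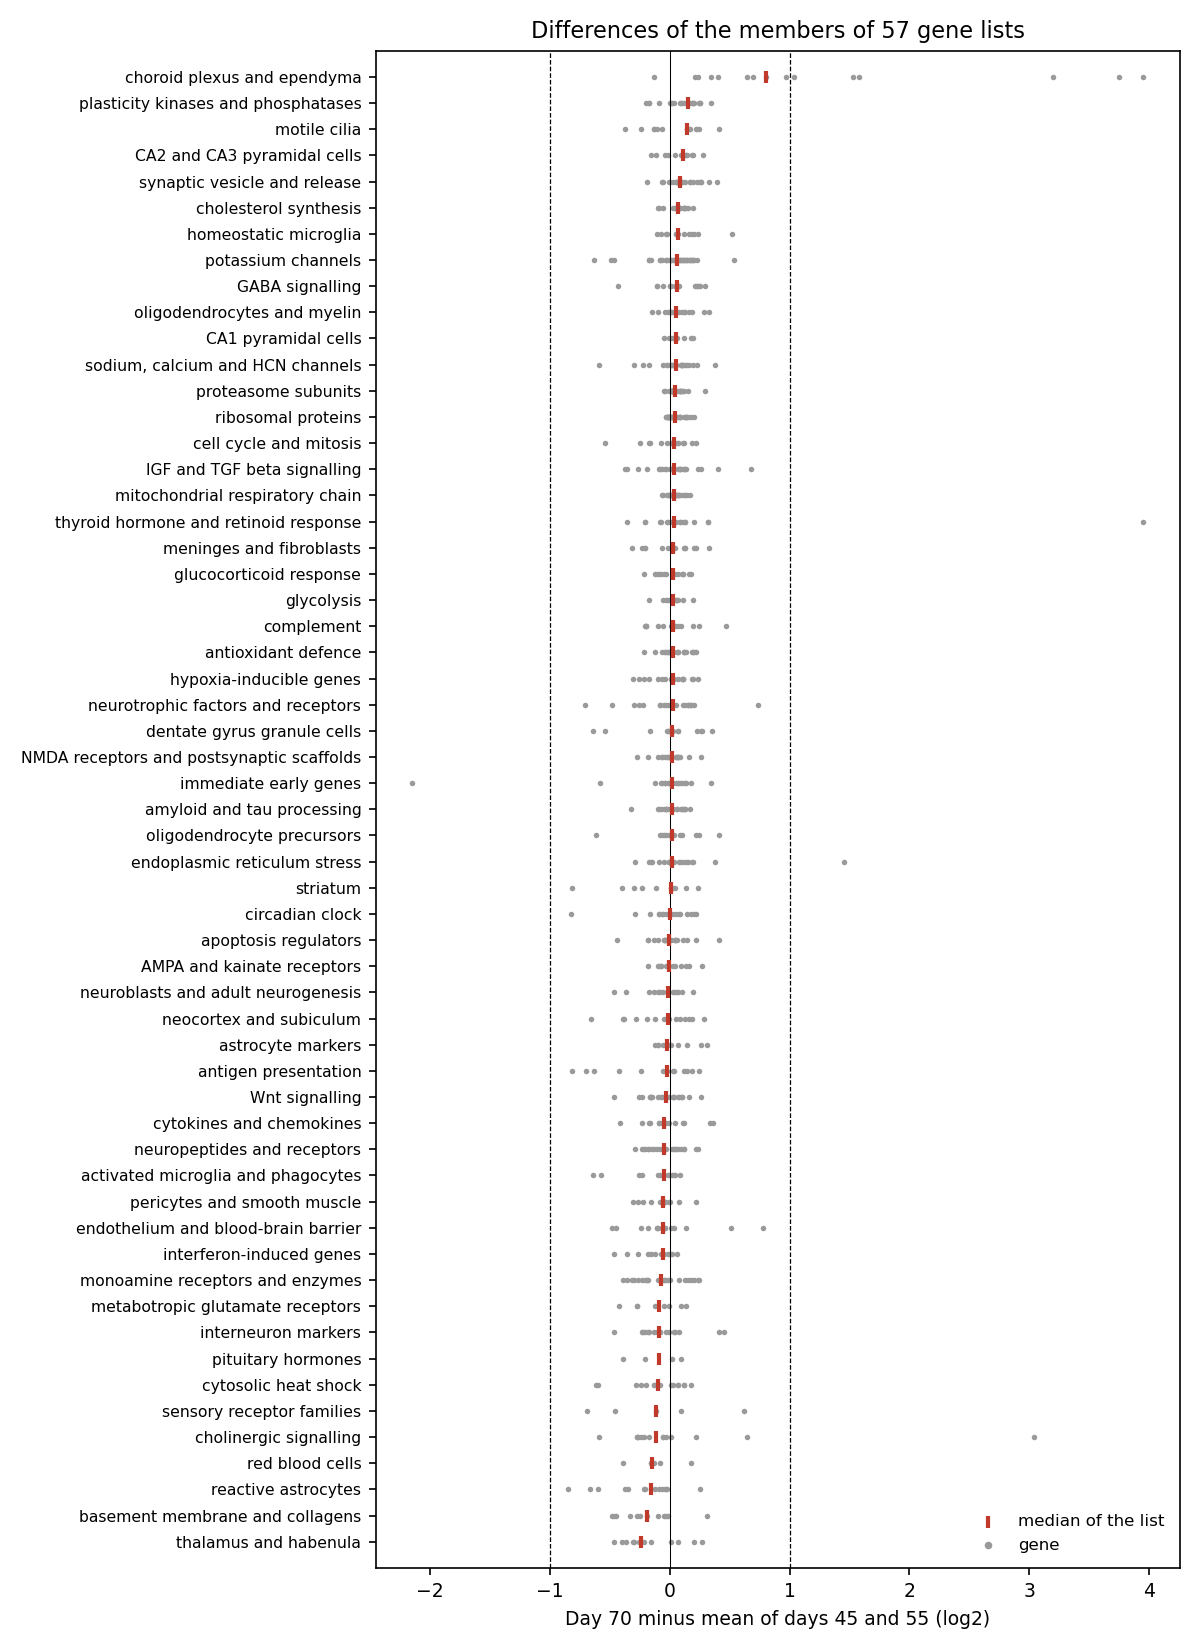
Grey points are the differences (log2 signal at day 70 minus the mean of days 45 and 55) of the genes in each of 57 lists, and red bars are the list medians. Dashed lines mark 2-fold. The choroid plexus and ependyma list has its median at 0.80, and all other medians lie between -0.24 and 0.15.

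The next highest medians were small, 0.15 for plasticity kinases, 0.15 for motile cilia, described above, and 0.11 for pyramidal cells of CA2 and CA3. In that last list 7 of 13 genes lay above and 2 below both other arrays, against 31.1% and 27.8% of all genes. Of the 13, 6 were in the brightest class, where 41.1% of all genes lay above both. Nptx1, a neuronal pentraxin, was highest at 0.28. Plasticity kinases and phosphatases, the enzymes that act downstream of synaptic calcium, had a median of 0.15, with 17 of 25 genes above both other arrays and 1 below. The highest were Dusp1, a phosphatase of MAP kinases that reads near the lower end of the scale (-5.65, -5.56 and -5.26), and Camkk2, a calmodulin-dependent kinase (-0.84, -0.76 and -0.54), with differences of 0.34 and 0.26. Prkca, a protein kinase C read from 10 spots, went from -0.58 and -0.37 to -0.24, a difference of 0.24. Crebbp, a transcriptional coactivator, was lowest with a difference of -0.20. 15 of these genes lay in the brightest class, where 41.1% of all genes were above both other arrays and 20.2% below, against 23.7% and 36.5% in the dimmest class.

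Synaptic vesicle genes had a median of 0.08, and 12 of 26 lay above both other arrays. 17 of the 26 were in the brightest class, in which 41.1% of all genes lay above both, so this share is near that of other bright genes. Rims1, an organiser of release sites, read -1.49, -1.18 and -0.94, a difference of 0.39. Rab3a, a vesicle GTPase, read 1.03, 0.60 and 1.14, a difference of 0.33 that came mainly from the low value at day 55. Snap25, a membrane fusion protein read from 10 spots, read 4.26, 4.25 and 4.36. Syt7, a calcium sensor of vesicles, had the lowest difference of the list at -0.19. These differences are a fraction of those of Ttr, Sostdc1 and Kcnj13, and none came near 2-fold. The smaller differences of the choroid plexus list, such as 0.40 for Igfbp2 and 0.21 for Calml4, were of like size.

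Reactive astrocyte genes read slightly below the earlier arrays at day 70. The list had a median of -0.15, 14 of 15 genes were below 0 and 9 of 15 lay below both other arrays, against 27.8% of all genes. Tgm1, a transglutaminase, read -4.76, -5.59 and -6.03, a difference of -0.85, and Hspb1, a small heat shock protein, read -0.79, -0.91 and -1.45, a difference of -0.59. Serpina3n, a protease inhibitor typical of reactive astrocytes, read -5.59, -5.94 and -6.43, and its difference of -0.67 is a bound. The defining genes of the state moved little, with Gfap at -0.09 and Vim at -0.07, each read from 9 or 10 spots. Over all 11 alternatives the median stayed between -0.17 and -0.14. At day 21, on the other slide, Hspb1, Vim and Gfap read 0.49, 1.02 and 0.85, above every later array.

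Basement membrane and collagen genes had a median of -0.19 with 12 of 13 below 0. Fewer, 6 of the 13, lay below both other arrays, against 27.8% of all genes. Col4a1 and Col4a2, the paired chains of vascular collagen IV, read -0.60, -0.32 and -0.79 and -2.76, -2.77 and -3.23, differences of -0.33 and -0.47. Against day 45 alone the list's median was -0.04 and against day 55 alone -0.24, so most of the shift was the higher level at day 55. The median of the thalamus and habenula list behaved alike, at -0.24, -0.02 against day 45 alone and -0.25 against day 55 alone. Of the 12 genes compared in that list, however, 7 lay below both other arrays, against 27.8% of all genes, and 3 above both. The lowest genes of the list were Calb2, a calcium-binding protein that also marks hippocampal interneurons and mossy cells (-1.06, -0.54 and -1.27), and Slc17a6, a vesicular glutamate transporter read from 10 spots (-1.57, -1.40 and -1.88). Gpr151, Pou4f1 and Gbx2, which define habenula and thalamus, were not well above background on any of the 3 arrays. The red blood cell list stood 0.66 higher at day 55 than at day 45, and at day 70 its median 0.19 against day 45 and -0.45 against day 55, between them.

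Antigen presentation genes divided within their list, whose median was -0.02 with 6 of 13 genes above 0 and 7 below. Cd74, the invariant chain of class II molecules, read -1.23 at day 45, -2.03 at day 55 and -2.33 at day 70, a difference of -0.70. RT1-Da and RT1-Bb, both of class II, read -3.59, -4.55 and -4.88 and -2.75, -3.17 and -3.59, differences of -0.82 and -0.63. These 3 were highest at day 45 and lowest at day 70 of the 3 arrays, while B2m, the light chain of class I, differed by 0.03. RT1-A2, a class I gene, went the other way, reading -0.81, -0.91 and -0.31, a difference of 0.55. Class I and II genes have near-identical copies in the rat, and a probe may read more than 1 of them. Spi1, the transcription factor that drives myeloid cells, read -4.93, -4.88 and -5.93 from 1 dim spot, a difference of -1.03 or 2.04-fold. On the other slide it read -5.58 in the control, -4.31 at day 21 and -5.46 at day 35, so the control and day 35 also lay below days 45 and 55. Spp1, or osteopontin, read -4.96, -4.42 and -5.33 over 9 spots, a difference of -0.64. The homeostatic microglia list had a median of 0.07 with 9 of 13 genes above 0, and the list of activated microglia and phagocytes a median of -0.05 with 9 of 13 below 0.

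Among the 6208 genes above the median of mean signal, Ttr was the only one at least 2-fold higher and Nxph3 the only one at least 2-fold lower. Nxph3 encodes a neurexophilin, a secreted ligand of the neurexins at synapses. It read 0.50 at day 45, -0.19 at day 55 and -1.08 at day 70, a difference of -1.23 or 2.35-fold, and against day 55 alone it was -0.89, which is under 2-fold. The second probe, a much dimmer one, read -4.84, -5.31 and -6.18, a difference of -1.11. Both probes thus put day 45 highest and day 70 lowest. On the first slide the brighter probe read 0.83 in the control, 0.06 at day 21 and 0.78 at day 35, so day 70 was the lowest of all 6 arrays.

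Bmp4, a growth factor of the TGF-beta family, read -1.36, -1.26 and -0.63, a difference of 0.68. Among genes of neurotrophic factors and their receptors, Bdnf differed by 0.18 and the receptors Ntrk2 and Ntrk3 by 0.15 and -0.05. In the neurotrophic list of 21 genes compared, the median was 0.02. Of these genes, 4 lay above and 8 below both other arrays, against 31.1% and 27.8% of all genes. Cntfr, a receptor of ciliary neurotrophic factor, was lowest at -0.71. RGD1565183, an uncharacterised gene, read 2.13, 2.45 and 3.28, just under 2-fold, and its control value of 3.08 was close to that of day 70.

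Smaller differences held for other bright genes above both arrays. Tbc1d10a, a regulator of Rab GTPases, differed by 0.53 and Syndig1, a protein of excitatory synapses, by 0.30, with 0.23 on its second probe. Others were not repeated by a second probe. Hmgb1, a chromatin protein released by damaged cells, differed by 0.44 on the probe used but by 0.03 and -0.02 on the others. Caprin1, an RNA-binding protein, gave 0.40 and -0.05, and the related locus Hmgb1-ps33 gave 0.65 and -0.20, where signals of near-identical copies may mix.

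On the lower side the bright genes after Nxph3 were Rexo1, an RNA exonuclease (0.92, 0.62 and -0.01), and Kif1c, a kinesin motor (-0.30, 0.00 and -0.84). Their differences were -0.78 and -0.68. Next came Hspb1, described above, and Setd5, a chromatin regulator, both at -0.59, Morn1 at -0.54, Srpk3, a kinase of splicing factors, at -0.53, Vwa5b2 at -0.53, Aagab at -0.45 and Tmem145 at -0.42. Vps13c, a lipid transfer protein read from 10 spots with SDs of 0.07, 0.05 and 0.05, read -0.10, 0.01 and -0.45, a difference of -0.40, and Tjap1, a junction-associated protein, differed by -0.36. In all 12 genes the day 70 value lay outside the range of the other 2 arrays by at least 0.34, as the rule for choosing them required an outlying value.

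**Figure D4:**
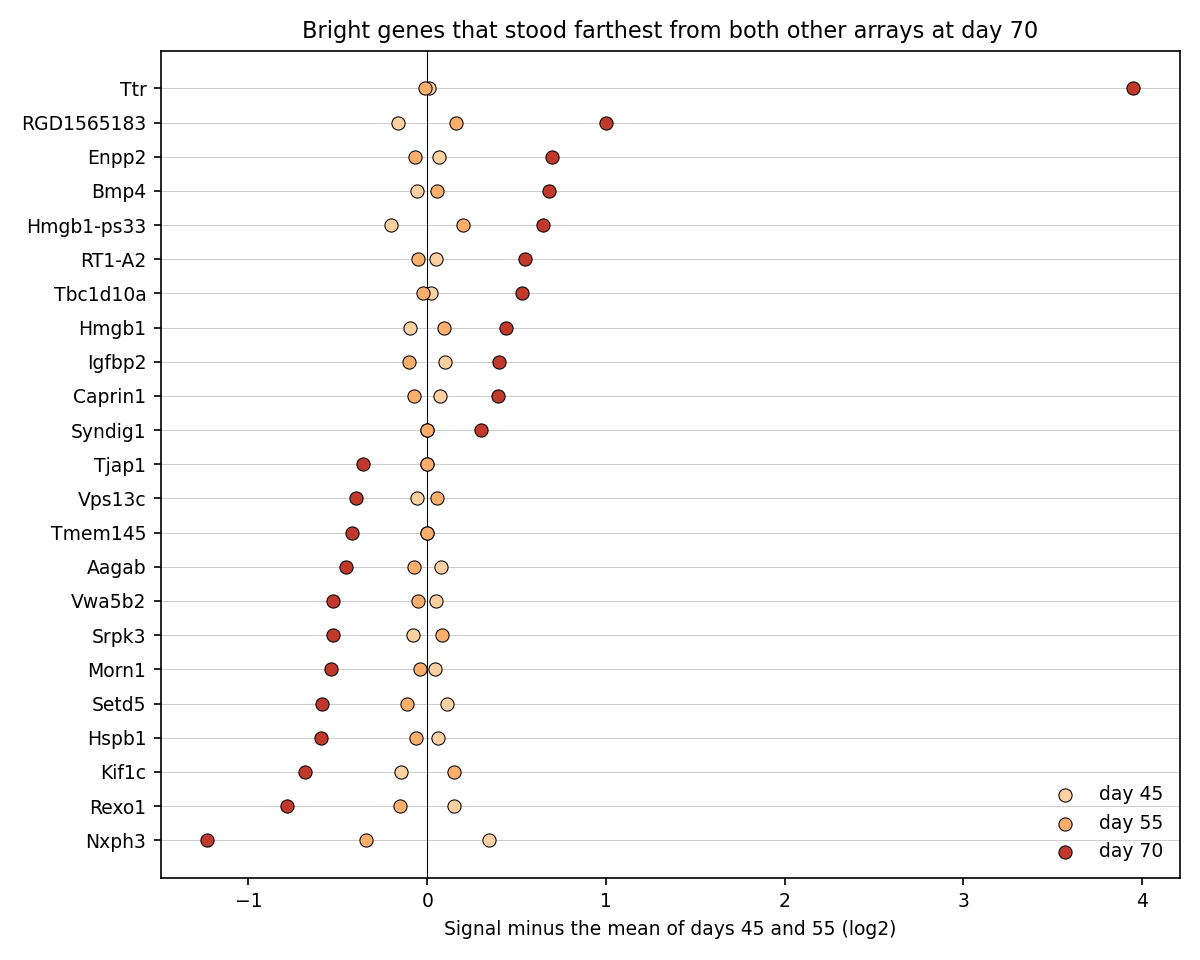
Log2 signal minus the mean of days 45 and 55 for genes above the median of mean signal that stood farthest from both other arrays, 11 on the higher side and 12 on the lower. Pale, orange and red circles are days 45, 55 and 70. Ttr at 3.95 stands alone, and most other differences are between 0.30 and 1.00 in size.

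The dim genes with the largest differences had many different functions, and no enrichment was tested. Well above background on all 3 arrays, 31 genes were 2-fold higher (0.249% of 12468) and 15 lower (0.12%). 25 (0.201%) were 2-fold above each of the others and 6 (0.0481%) 2-fold below each. Of the same 12468 genes, day 45 stood above each of the others for 19 (0.152%) and below for 6 (0.0481%), and day 55 for 21 (0.168%) and 3 (0.0241%). After Ttr the higher ones were led by Nherf4, a scaffold protein of epithelial membranes (-5.54, -5.22 and -2.29, a difference of 3.08), Stard5, a lipid transfer protein (-5.79, -4.32 and -2.0, 3.05), and Slc45a2, a transporter of pigment cells (-5.73, -6.33 and -3.45, 2.58). Gng11, a G protein subunit, differed by 2.31, Frs3, an adaptor of growth factor receptors, by 2.38, Spx, the neuropeptide spexin, by 2.07 and Slc2a9, a urate transporter, by 1.93. Rasl12, a small GTPase, differed by 1.98, but its second probe by -0.05. Cfap206, a ciliary protein, differed by 1.74, Gmnn, an inhibitor of replication licensing, by 1.64, Lig3, a DNA ligase, by 1.63, Lipt1 by 1.46 and Fam210a by 1.41. The second probes of Spx and Cfap206 were not well above background on any of the 3 arrays. Each of the genes in this paragraph was read from 1 spot.

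Only 10 genes were 2-fold lower, below both arrays and well above background on all 3, with Nxph3 and Spi1 among them. Qrich2, a protein of the sperm flagellum, read -3.29, -4.03 and -5.97, a difference of -2.31, and Bcl2l13, a mitophagy receptor, read -4.12, -3.85 and -6.04, a difference of -2.05. For Bcl2l13 the other slide read -5.95, -6.12 and -6.33, so days 45 and 55 were the ones that stood out. Macroh2a2, a histone variant, differed by -1.35, Pcdhb6, a protocadherin, by -1.28 and Il22ra2, a decoy receptor of an interleukin, by -1.23. Mmp25, a metalloproteinase (-3.17, -4.67 and -5.33, a difference of -1.42), and Cenpk, a centromere protein (-2.72, -4.45 and -5.03, -1.44), were high at day 45 alone. Chit1, a chitinase of macrophages (-5.29, -2.45 and -5.45, -1.58), was high at day 55 alone.

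Where 1 side was not well above background, Il1rl1, an interleukin receptor of the immune system, stood first with -8.21, -8.59 and -2.20, at least 18.1-fold higher. Its second probe was not well above background on any of the 3 arrays. Slco1a1, an organic anion transporter, and Rnf19b, a ubiquitin ligase, were at least 14.3-fold and 13.9-fold higher. The lowest bounds were those of Fbxw8 (-3.91, -3.87 and -7.19, at least 6.14-fold lower), Mrgprf (at least 4.75-fold) and Lrsam1 (-2.98, -5.59 and -6.91, at least 4.67-fold). Lrsam1 was high at day 45 alone, and its difference from day 55 was -0.92, under 2-fold. The second probes of Fbxw8 and Lrsam1 differed by -0.01 each. 40 of the 124 higher genes were well above background at day 70 and on none of the other 5 arrays. The filter on dim spots set the side of such genes, since they could enter only as higher. The same count was not made for another array.

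Second probes gave a further reading where a gene had one. Of the 124 higher genes, 16 had another probe, 5 of these could be compared, and 1, that of Plac9, was also at least 2-fold higher. Of the 47 lower genes, 10 had another probe, 5 could be compared, and 1, that of Nxph3, was also at least 2-fold lower. For each gene, the other probe that went farthest in the gene's own direction was taken. The median of these differences was -0.06 over the 5 higher genes and -0.01 over the 5 lower ones. Probes of a gene can read different transcripts, and which was the case was not tested.

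**Figure D5:**
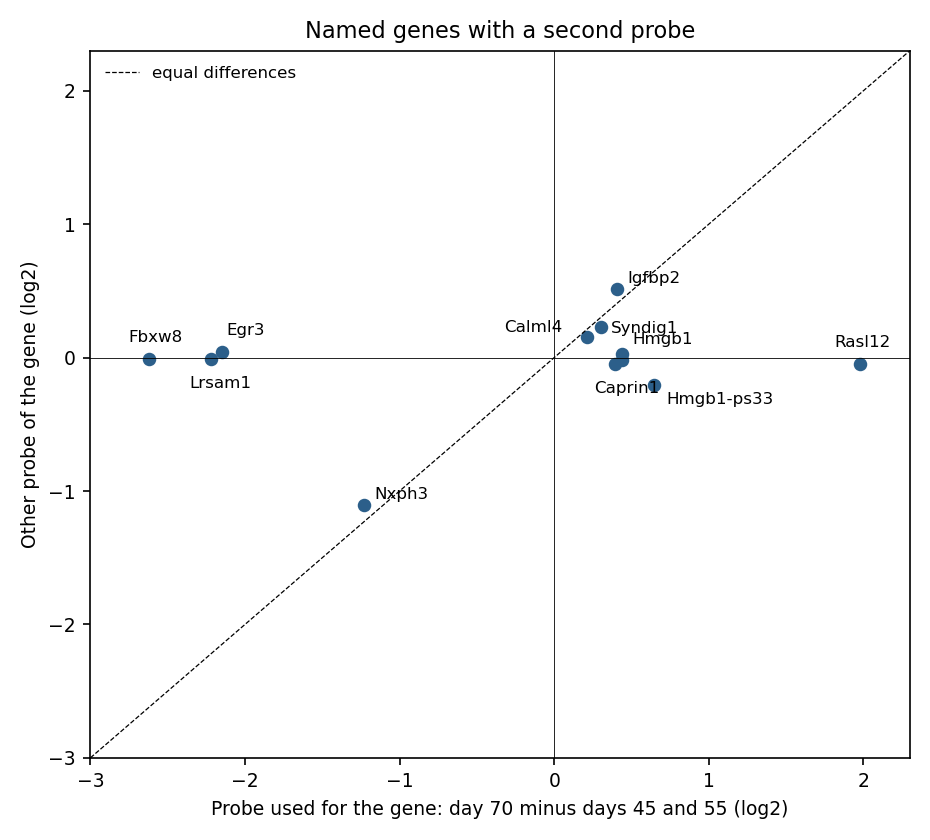
Difference (log2 signal at day 70 minus the mean of days 45 and 55) of the probe used for a named gene, on the horizontal axis, against that of another probe of the same gene. The dashed line marks equal differences. Nxph3, Igfbp2, Syndig1 and Calml4 lie near it, while the other probes of Rasl12, Fbxw8, Lrsam1, Egr3, Hmgb1 and Caprin1 lie near 0.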

How the data were processed

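Per the labels' protocols, total RNA was isolated with TriPure, pooled, and then linearly amplified and labelled with an Agilent kit for low RNA input. The labels name Cy5, whereas the scanner files hold the green channel, which was used. Scanner files deposited by the authors, 1 per array, were the source. Per the file headers, Feature Extraction 10.7.3.1 from Agilent read the spots of design 028282, and the intensity used is the processed signal, background-subtracted and detrended but not scaled between arrays. A table of intensity values for 41507 spots was deposited by the authors as well, and the sources used here do not say how it was made. On each array its values ranked exactly as median signal minus background (rank correlation 1.0), and it served as an alternative.

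Spots marked as outliers were left out (346 to 459 of 42877 per array). The log2 signal was reduced by the array's 75th percentile with no pseudocount, and spots were averaged by probe, 28977 probes being printed once and 1390 printed 10 times. Names came from RefSeq (GRCr8, names only): 17328 of 30367 probes matched by accession, 2635 by symbol, 698 by synonym and 228 by another accession, and 9478 stayed unnamed. Each of 17491 genes was read by its probe with the highest mean over the 6 arrays.

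A side not well above background was set to the higher of its own value and the dimmest value called well above background there, which makes the difference a bound ("at least"). If 1 of days 45 and 55 was well above background, the gene was partly measured and both values were used as read. 3750 genes below background and 52 saturated ones on the 3 arrays, and 280 at background, have no difference. Named genes are the 15 higher and 15 lower (10 qualified) genes at least 2-fold from the mean, beyond both arrays and well above background on all 3, ranked by the smaller of their distances from day 45 and day 55. To these were added 12 higher and 12 lower genes above the median of signal, the 3 highest and 3 lowest bounds, list members past 2-fold or farthest from 0, and markers for the tissue check. Some of these results are not reported here. Plac9 and Cnmd were named after their values were seen. The comparison and the 57 lists (1120 entries on the array) were chosen with earlier results of these data known. With 1 array per day no p-value was computed. Python 3.11.15 with pandas 2.3.3, also for quantile normalization, and R 4.3.3 with limma 3.58.1 for normexp correction, were used. The comparison was tested on simulated data.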

Additional observations from a re-analysis of the deposited data

How the results depend on the processing

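The counts of genes past 2-fold depended on how dim spots were treated, since most of those genes are dim. The main counts were 124 higher, 47 lower, 88 above both arrays and 17 below both. Normexp background correction gave 40, 12, 37 and 1, and the authors' deposited values gave 67, 26, 57 and 7. With genes well above background on all 3 arrays the counts were 31, 15, 25 and 6, and with no filter on dim probes 288, 370, 201 and 100. Against day 55 alone 121 genes were higher and 132 lower, and against day 45 alone 128 and 126, so the excess of higher over lower genes was not seen against either array by itself. Counts beyond both arrays do not exist for those 2 settings. The remaining planned settings kept every count within 1.5 times. All 40 genes higher after normexp correction and all 67 in the authors' values were among the 124. An alternative added after seeing the data set the dim array of partly measured genes to its floor and gave 109, 87, 88 and 17, the rise to 87 following from raising the dim reference. Over 733 values of 68 named genes under the alternatives, 2 changed sign, both of them small. Foxj1 was 0.04 against day 45 alone and Otx2 -0.06 against day 55 alone. The choroid plexus list had the highest median of the 57 lists under all alternatives, from 0.38 to 1.17. Because the lists were written with earlier results of these data known, this rank is not independent of the data. No paired analysis was possible because each day has 1 array.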
